A study of Homo sapiens with 10 samples.

Results

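Forkhead (FOX) genes encode transcription factors that share a winged-helix DNA-binding domain. The gene table held 34567 genes, of which 42 had a name made of FOX, a family letter from A to S, a number and at most 1 further letter. They were chosen by that name rule because 1 of them, FOXS1, was known to be among the genes lowered most by MEOX2 knockdown in SNB19 cells. The knockdown values of FOXS1 therefore chose the family and are given as a description with no test, whereas the other 41 genes were chosen by name. Of the 42 genes, 40 were protein-coding and FOXO1B and FOXO3B were retrocopies, that is, processed copies of FOXO1 and FOXO3.

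RNA sequencing was performed on 10 libraries from 2 human glioblastoma cell lines to ask which transcripts follow the homeobox transcription factor MEOX2. SNB19 cells, which carry endogenous MEOX2 transcript, were transfected with a negative control siRNA (NC, 3 libraries) or with siRNA against MEOX2 (siMEOX2, 3 libraries). U87 cells were infected with lentivirus, either the empty vector (EV, 2 libraries) or a vector carrying Flag-tagged MEOX2 (MEOX2-OE, 2 libraries), and were kept as puromycin-selected populations. All cells were grown in DMEM with fetal bovine serum. Neither the labels nor the methods state that libraries of a group came from separate cultures, so each p-value measures the spread between these libraries, which may be technical. A lower level in such bulk RNA can mean fewer expressing cells or less RNA per cell, which cannot be told apart here.

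The third helix of the forkhead domain lies in the major groove of DNA and reads the recognition site, while the wings add further contacts. FOXC, FOXF, FOXL1, FOXQ1 and FOXS1 proteins are known from mesenchyme, vessel walls and neural crest, and FOXS1 marks pericytes of developing vessels. FOXM1 drives genes of G2 and mitosis, and FOXO proteins act downstream of insulin and PI3K-AKT signalling, which holds them in the cytoplasm. FOXK proteins repress autophagy and support glycolysis, and FOXP proteins dimerise through a zipper.

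The coding bases of this recognition helix were compared between FOXS1 and other members. A stretch of 30 bases was located in GENCODE 29 protein-coding transcripts on GRCh38 by a fixed pattern of 10 residues. It was found in 32 of the 40 protein-coding members, a count that depends on this pattern. The stretch encoded the same 10 residues in 16 of them, FOXS1 included. Each sequence runs 5′ to 3′ on the coding strand, and capitals mark the bases that differ from FOXS1.
FOXS1, chr20:31845324-31845353, minus strand: aacagcatccgccacaacctgtcactcaac
FOXC1, chr6:1610815-1610844, plus strand: aacagcatccgccacaacctCtcGctcaac
FOXF1, chr16:86510849-86510878, plus strand: aacTCcGtGcgccacaacctCtcGctcaac
FOXK1, chr7:4756994-4757023, plus strand: aaTTCTatccgGcacaacctCtcTTtGaac
FOXM1, chr12:2866492-2866521, minus strand: aacTCcatccgccacaacctTtcCctGCac
FOXO3, chr6:108663455-108663484, plus strand: aacTCcatccgGcacaacctgtcactGCaT
FOXD3, not shown, had the fewest bases that differed from FOXS1, at 1 of 30. FOXC1 differed from FOXS1 at 2 of the 30 bases, and the stretches of FOXC2, FOXD1 and FOXL1 were identical to that of FOXC1. FOXK1 differed at 9 bases and kept the residues of FOXS1. FOXF1, FOXM1 and FOXO3 differed at 6 bases each, and these 3 did not encode the same residues.

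Among the 42 genes, 13 had 100 or more reads in every library and 11 had fewer than 10 reads in every library. The genes below 10 reads throughout were FOXB1, FOXD3, FOXE1, FOXE3, FOXH1, FOXI3, FOXJ1, FOXL2, FOXN1, FOXN4 and FOXR1. FPKM, the deposited read count divided by gene length and by the counts of the library, was used to compare levels between genes. In control SNB19 cells FOXM1 was the most abundant member, at 25.7 FPKM ± 0.42 (SD, n = 3). FOXJ3 (11.9 ± 0.30), FOXO3 (11.3 ± 0.47), FOXK1 (10.7 ± 0.30) and FOXO6 (9.25 ± 1.01) followed. The libraries of FOXM1 did not overlap those of FOXJ3, whereas the ranges of FOXJ3 and FOXO3, of FOXO3 and FOXK1, and of FOXO6 and FOXS1 overlapped. FOXS1 ranked 6 of 42 there, at 8.87 FPKM ± 1.69, and fell to rank 22 in the siMEOX2 libraries. In empty-vector U87 cells the order was led by FOXL1 (38.4 FPKM ± 2.50, n = 2), FOXD1 (34.4 ± 16.7), and FOXM1 (17.7 ± 17.1), and FOXK2 stood at 10.5 ± 5.02. The ranges of FOXL1 and FOXD1 and of FOXD1 and FOXM1 overlapped. In the MEOX2-OE libraries FOXD1 (62.8 FPKM ± 3.78) lay above FOXL1 (49.4 ± 0.29) and FOXM1 (15.5 ± 0.25) with no overlap.

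**Figure D1:**
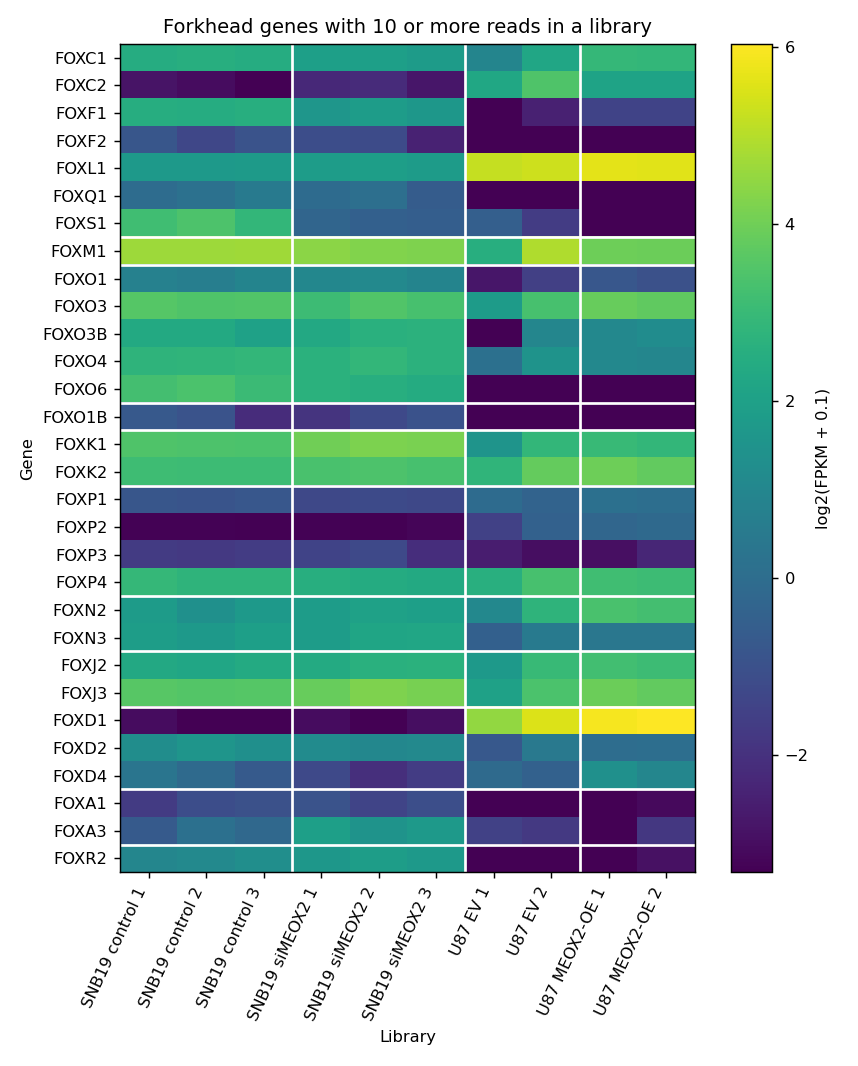
Levels of 30 forkhead genes with 10 or more reads in at least 1 library, as log2(FPKM + 0.1), with genes as rows in fixed groups and the 10 libraries as columns. FOXS1 is bright in the 3 SNB19 control libraries and dark in the others, while FOXD1 and FOXC2 are dark in SNB19 and bright in U87.

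The libraries held between 12533775 and 16560324 gene counts, and intervals and floors given here cover counting error alone. MEOX2 itself followed the labels. SNB19 control libraries had 249, 224 and 275 MEOX2 reads and siMEOX2 libraries 54, 40 and 49, a log2 change of -2.41 (SE 0.14, adjusted p = 1.35e-11 by edgeR's quasi-likelihood test). U87 empty-vector libraries had 0 MEOX2 reads and MEOX2-OE libraries 4999 and 5308, at least 1619-fold higher against a floor of 3 reads per library. Empty-vector library 1 stood apart from the other 9: its FPKM values summed to 355931 against 257892 to 274893, and short transcripts were favoured in it relative to empty-vector library 2, with median log2 ratios of 0.76, 0.17, -0.22 and -0.65 over 4 equal groups of genes from the shortest to the longest. Of the 22 forkhead genes testable in U87 cells, 19 were lower in library 1 than in library 2, by a median of -0.80 on the log2 scale, so tests and bounds that use this library are also given without it. Such fits hold 1 empty-vector library, which is assumed to vary like the other groups. Markers fixed for other cell types were counted where at least 1 library of a line, control or treated, reached 1 FPKM. SNB19 cells had 6 of 11 astroglial markers (VIM, NES, SOX2, SOX9, SLC1A3 and OLIG2, not GFAP, S100B or AQP4) and 9 of 15 mural markers. They had 1 of 6 endothelial, 1 of 5 immune, 2 of 6 neuronal and 2 of 6 epithelial markers. U87 cells had 5, 10, 1, 1, 3 and 0 of them, respectively. Some reached that level on average in the treated group alone. ACTA2 in SNB19 had a mean of 0.549 FPKM in controls and 1.11 after knockdown. KDR in U87 had 0.563 with empty vector and 1.12 with MEOX2-OE.

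FOXS1 is a single-exon gene of 1319 bases at chr20:31844301-31845619 (GRCh38, minus strand). Control SNB19 libraries held 194, 191 and 147 FOXS1 reads, equal to 8.88, 10.6 and 7.18 FPKM. The siMEOX2 libraries held 15, 12 and 11 reads, equal to 0.724, 0.633 and 0.592 FPKM. Every control library was above every knockdown library. On TMM-normalised CPM, that is, reads scaled to an equal library size, the level was 11.1 ± 2.16 in controls and 0.765 ± 0.093 after knockdown (SD, n = 3 each), a fold change of 14.2 (log2 -3.82, SE 0.22). This was the 4th lowest log2 fold change of 15525 genes tested, behind ISLR (-4.88), CDH5 (-4.75) and DNAH10OS (-4.19) and just ahead of LINC01465 (-3.80). Among the 11060 genes with a mean control level over 5 CPM, a cut-off chosen after the values were seen, it ranked 1st.

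In U87 cells FOXS1 was near the limit of detection. Empty-vector libraries held 13 and 4 reads (0.610 and 0.216 FPKM), and both MEOX2-OE libraries held 0 reads. Against a floor of 3 reads per library, FOXS1 was at least 3.14-fold lower in MEOX2-OE cells. This bound takes the empty-vector mean (0.728 CPM ± 0.608, SD, n = 2) as it stands, without its error. Without empty-vector library 1 the bound moved from a log2 value of -1.65 to -0.36, so most of the bound rested on 13 reads in the library that stood apart. FOXS1 was thus lower with less MEOX2 in SNB19 cells. In U87 cells the lower value with more MEOX2 rests on these few reads and was not tested, so it does not establish a direction. The difference between these effects was not tested because no read was found in the MEOX2-OE group. Between the control groups FOXS1 was 3.95 higher in SNB19 on the log2 scale (SE 0.56), or 5.16 without empty-vector library 1. That contrast uses the same control libraries that chose FOXS1, so it is a description as well.

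The adjacent gene on each side of FOXS1 was lowered as well, where 28.5% of all genes tested were called lower. MYLK2, a myosin light chain kinase of skeletal muscle, lies at chr20:31819308-31834689 on the opposite strand, 9.6 kb from FOXS1 and without overlap. It held 136, 77 and 94 reads in control SNB19 libraries and 13, 5 and 8 after knockdown. The groups did not overlap, and the log2 change was -3.56 (SE 0.28, adjusted p = 1.42e-09, edgeR). On the other side DUSP15, a dual specificity phosphatase 2.0 kb away, fell from 47, 35 and 31 reads to 26, 18 and 23 (log2 -0.77, SE 0.27, adjusted p = 0.020, edgeR). TTLL9, which encodes a member of the tubulin tyrosine ligase-like family, did not pass (log2 -0.73, adjusted p = 0.155, edgeR), and it overlaps the start of DUSP15. The spindle factor TPX2 (log2 0.06) and PDRG1 (log2 -0.12) further out did not pass either, and AL160175.1 had too few reads to test. In U87 cells MYLK2 held 29 and 12 reads with empty vector and 11 and 7 with MEOX2-OE, a difference that did not pass with all libraries (adjusted p = 0.383, edgeR) or without empty-vector library 1 (log2 -0.36, adjusted p = 0.753, edgeR). The promoter windows searched below did not include FOXS1.

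Beyond FOXS1, MEOX2 knockdown changed forkhead genes in both directions. Of 25 other members with enough reads to test, 15 had an adjusted p under 0.05 (edgeR), 10 lower and 5 higher. These 15 of 25 compare with 55.9% of all 15525 genes tested, of which 27.4% were higher and 28.5% lower. The median log2 change of the 25 members was -0.14, beside 0.006 for all genes. The control and knockdown libraries did not overlap for 15 of the 25, against 61.1% of all genes. Under the study's threshold, an absolute log2 fold change over 1 with unadjusted p under 0.05, FOXA3 and FOXD4 alone passed, 2 of 25 beside 10.8% of all genes. The 10 members that did not pass lay between -0.65 and 0.24 (log2), and 16 members had too few reads to test.

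**Figure D2:**
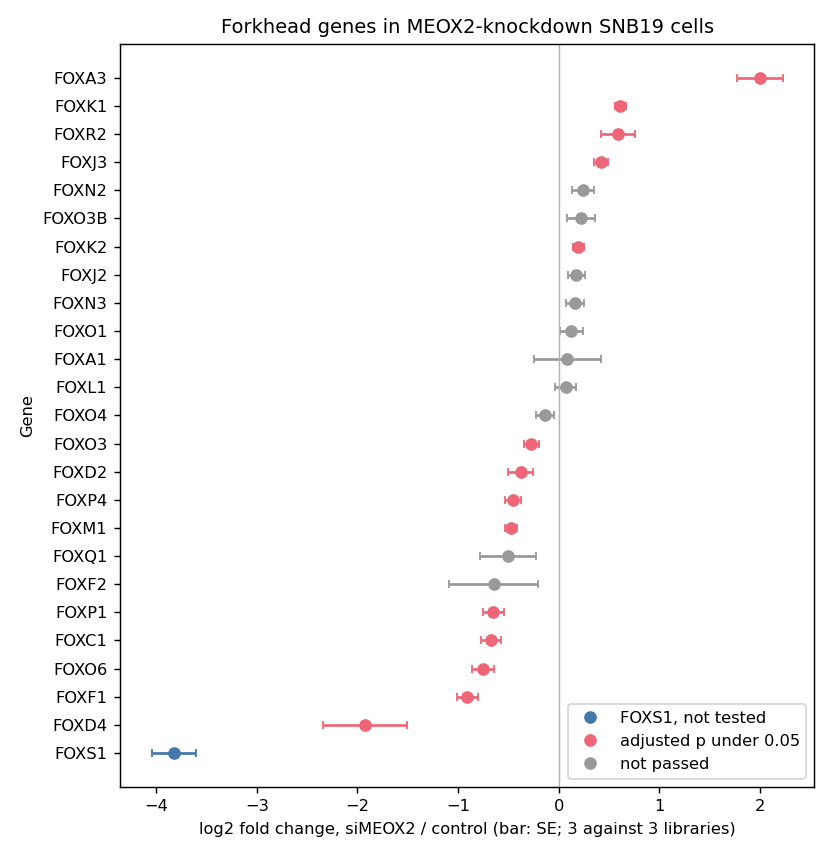
Knockdown log2 fold changes with SE bars for FOXS1 and 24 other tested forkhead genes in SNB19 cells (3 siMEOX2 against 3 control libraries). FOXA3 stands at 2.00 and FOXD4 at -1.93, and the other 12 members shown that passed (pink) lie between -0.91 and 0.61.

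Among the mesenchymal and vascular members, 2 of the 5 tested besides FOXS1 fell and none rose, beside 28.5% of all genes lower and 27.4% higher. FOXF1, a factor of lung and gut mesenchyme and its vessels, had 326, 262 and 314 reads in control libraries and 163, 175 and 150 after knockdown. Every knockdown library was below every control library (log2 -0.91, SE 0.10, adjusted p = 2.74e-07, edgeR). FOXC1, a factor of eye, vessel and bone development, went from 357, 307 and 328 reads to 231, 212 and 190, again without overlap (log2 -0.67, SE 0.10, adjusted p = 4.85e-06, edgeR). FOXL1 lies 6.6 kb from FOXC2 on chromosome 16, which in turn lies 51.4 kb from FOXF1, and held 196, 162 and 191 reads and then 208, 196 and 181 (log2 0.07, not passed). FOXQ1 and FOXF2, the neighbours of FOXC1 on chromosome 6, had log2 values of -0.50 and -0.65 that did not pass. FOXC2 had 3 reads in the controls together and 12 after knockdown and was not tested, and FOXL2 had at most 4 reads in a group. FENDRR, the non-coding gene next to FOXF1, had 11, 1 and 10 reads and then 0, 4 and 0, too few to test.

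FOXM1, the mitotic member, fell from 25.5, 25.4 and 26.2 FPKM to 20.9, 19.0 and 18.5 (log2 -0.48, SE 0.06, adjusted p = 8.77e-07, edgeR), with no overlap between groups. Among 20 genes of G2 and mitosis that FOXM1 is known to drive, 12 fell and 4 rose, beside 28.5% of all genes lower and 27.4% higher, with a median of -0.21 beside 0.006 for all genes. The members with the largest changes were CCNB1, cyclin B1 (log2 -0.60), the phosphatase gene CDC25B (-0.56), the spindle checkpoint kinase gene TTK (-0.55) and the kinesin gene KIF20A (-0.52). AURKB, SKP2, BUB1 and TOP2A were the 4 that rose. In the MuvB complex, with which FOXM1 works, LIN52 fell (log2 -0.83), LIN9 rose (0.53) and the other 4 of 6 genes did not pass.

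Of the 5 FOXO members tested, 2 fell and none rose, beside 28.5% of all genes lower and 27.4% higher. FOXO6, which unlike its relatives stays mainly in the nucleus, fell from 367, 338 and 307 reads to 234, 198 and 181 (log2 -0.75, SE 0.11, adjusted p = 4.94e-06, edgeR). FOXO3 fell by 0.27 on the log2 scale (adjusted p = 0.0039, edgeR), whereas FOXO1 (0.13), FOXO4 (-0.14) and FOXO3B (0.22) did not pass and FOXO1B had too few reads. Of the 150-base windows in FOXO3B transcripts, 30.6% also occur in other genes, and 11.6% of those in FOXO3, so reads may be split between the parent gene and its copy. Of 19 testable FOXO target genes, 9 rose and 6 fell, beside 27.4% of all genes higher and 28.5% lower. The largest changes were SOD2, a mitochondrial superoxide dismutase (log2 1.49), the stress protein gene SESN1 (-1.11), TXNIP, an inhibitor of thioredoxin (-0.94), and the apoptosis gene BBC3 (0.85). Of 15 genes that control FOXO through PI3K and AKT, 9 fell and 1, PDPK1, rose, against the same shares of all genes. PIK3CA, a catalytic subunit of PI3K (log2 -0.66), the kinase gene SGK1 (-0.57), the insulin receptor substrate gene IRS1 (-0.42) and the 14-3-3 gene YWHAZ (-0.41) changed the most.

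Both FOXK genes rose, beside 27.4% of all genes. FOXK1 went from 2386, 1914 and 2113 reads to 3250, 3427 and 3251, so every knockdown library was above every control library (log2 0.61, SE 0.06, adjusted p = 9.82e-09, edgeR). FOXK2 rose by 0.20 (SE 0.06, adjusted p = 0.0057, edgeR). FOXP1, a factor of B cells and neurons, fell from 281, 221 and 277 reads to 175, 172 and 157 (log2 -0.65, SE 0.10, adjusted p = 2.20e-05, edgeR). Its level was under 0.5 FPKM in all controls, where these reads are divided by an exon length of 36714 bases. Of its 150-base windows, 6.90% are shared with an overlapping gene model. FOXP4 fell as well (log2 -0.45), whereas its antisense transcript FOXP4-AS1 rose from 21, 27 and 16 reads to 45, 38 and 41 (log2 0.92, SE 0.28, adjusted p = 0.0078, edgeR). FOXP2 and FOXP3 were not tested. FOXJ3, which takes part in muscle and sperm development, rose (log2 0.42, SE 0.07), while FOXJ2 (0.17), FOXN2 (0.24) and the checkpoint suppressor FOXN3 (0.16) did not pass.

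The largest rise in the family was that of FOXA3, a factor known from liver and gut endoderm. It had 19, 30 and 27 reads in control libraries and 131, 84 and 97 after knockdown (log2 2.00, SE 0.23, adjusted p = 2.70e-07, edgeR), and the groups lay far apart. FOXA1, also a factor of endoderm and gland epithelium, had 14, 20 and 25 reads against 27, 16 and 21 (log2 0.09, not passed). FOXD4 had the largest drop after FOXS1, from 37, 23 and 16 reads to 10, 4 and 6 (log2 -1.93, SE 0.42, adjusted p = 5.46e-04, edgeR). It is uncertain because 8.38% of its 150-base windows also occur in 4 FOXD4L copies. The copy FOXD4L1 had 6, 11 and 13 reads in control libraries and 0 in every knockdown library. FOXD2 fell by 0.38 (adjusted p = 0.015, edgeR), a call lost without control library 2 (log2 -0.29) or without siMEOX2 library 2 (-0.32). Its neighbour FOXD2-AS1 rose (log2 0.42, SE 0.15, adjusted p = 0.020, edgeR). FOXR2, a testis gene that is activated in some brain tumours, rose from 59, 54 and 70 reads to 90, 100 and 89 (log2 0.59, SE 0.17, adjusted p = 0.0059, edgeR).

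Marker lists of cell types moved in the same comparison. Of 7 testable astroglial markers 6 fell and 1 rose, with SOX9 at -1.85 on the log2 scale, and of 14 mural markers, the cell type FOXS1 is known from, 8 fell and 2 rose, with DES at -2.08 and ABCC9 at 1.67. Of all genes 28.5% fell and 27.4% rose. Summed mural marker levels were 98.3 to 103 FPKM in control libraries and 68.2 to 75.9 after knockdown. Most of these sums came from MCAM (mean 52.1 FPKM in controls, 36.3 after knockdown) and CNN1 (31.9 and 23.4). They therefore say little of the other mural markers, of which ACTA2 went from 0.549 to 1.11 FPKM. Endothelial markers (2 of 4 lower, CDH5 and PECAM1), immune markers (2 of 3 lower), neuronal markers (2 lower and 1 higher of 4) and epithelial markers (2 lower and 2 higher of 5) rested on genes of at most a few FPKM. Their part in the forkhead values was not tested.

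In U87 cells no forkhead gene passed the test after MEOX2 overexpression. None of the 22 members tested had an adjusted p under 0.05 by edgeR, and 0.0% of all 14180 genes tested did, although 2643 genes and 2 members, FOXC1 and FOXC2, had an unadjusted p under 0.05. DESeq2 called 991 genes (6.99%) and no member. Under the study's threshold FOXC1 and FOXC2 passed, 2 of 22 beside 15.2% of all genes. The empty-vector and MEOX2-OE libraries did not overlap for 14 of the 22, beside 58.1% of all genes. Of the 14, 12 were higher and 2 lower with MEOX2-OE, beside 29.9% and 28.2% of all genes. The median log2 value of the members was 0.46, beside -0.06 for all genes. Without empty-vector library 1, edgeR called 12 members, 8 higher and 4 lower, at a background of 47.4% of 14875 genes, 23.3% higher and 24.2% lower. Without empty-vector library 2 it called 18 members, at a background of 71.2%.

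FOXC1 had 114 and 251 reads with empty vector and 364 and 417 with MEOX2-OE (log2 1.04, SE 0.38, adjusted p = 0.261, edgeR), and 0.68 without library 1. FOXC2, a factor of lymphatic vessels and mesenchyme, had 216 and 448 reads and then 153 and 179 (log2 -1.06, SE 0.37, adjusted p = 0.249, edgeR), and -1.39 without library 1. These paralogues thus lay on opposite sides, and their groups did not overlap. FOXD1, the most abundant member with MEOX2-OE, had 960 and 1704 reads and then 1977 and 2514 (log2 0.68, or 0.43 without library 1). FOXD4 had 27 and 18 reads and then 62 and 54 (log2 1.25, or 1.73 without library 1), with the same shared sequence as above. FOXF1 was barely detected, with 0 and 4 reads and then 12 and 14. FOXJ3, FOXN2, FOXO3 and FOXP1 also passed as higher and FOXM1 and FOXO4 as lower without library 1, at log2 values from 0.46 to 0.52 and of -0.95 and -0.51, and FOXL1 passed at 0.29. Without library 2 instead, FOXP1 was called lower (log2 -0.28, adjusted p = 0.045, edgeR).

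**Figure D3:**
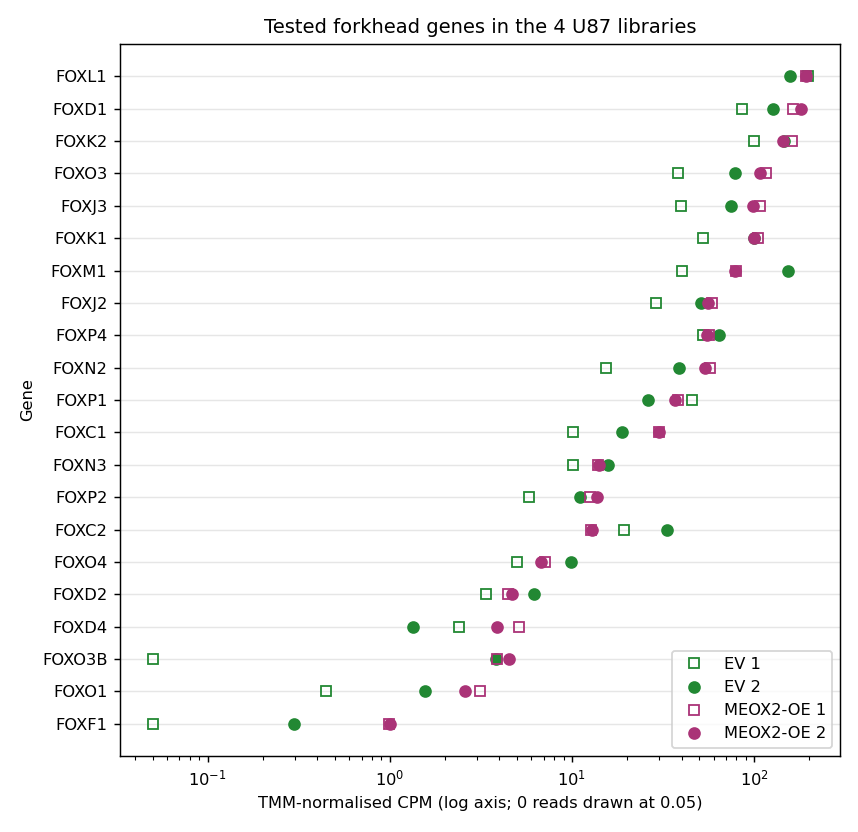
TMM-normalised CPM (log axis) of 21 tested forkhead genes in each U87 library, with empty-vector libraries in green and MEOX2-OE libraries in purple, and squares for library 1 and circles for library 2 of each group. The open green squares of empty-vector library 1 lie below the filled green circles for 18 of the 21 genes shown, whereas the MEOX2-OE pair lies close together.

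FOXM1 shows how far that library reaches. It had 449 and 2054 reads in the empty-vector libraries and 964 and 1100 with MEOX2-OE, so the groups overlapped (log2 -0.29, SE 0.66, adjusted p = 0.807, edgeR). It was called lower without library 1 and higher without library 2, at log2 values of -0.95 and 1.01. The FPKM values of the 20 FOXM1 target genes summed to 681 and 686 in the empty-vector libraries and to 286 and 296 with MEOX2-OE. The FPKM values of all genes summed to 355931 in empty-vector library 1 and 260547 in library 2. Near-equal target sums are therefore unequal shares of these totals. Single targets also differed between the empty-vector libraries, as TOP2A, a DNA topoisomerase gene, at 42.2 FPKM ± 32.8 and KIF20A at 15.1 ± 10.9 (SD, n = 2). Both empty-vector libraries were above both MEOX2-OE libraries for 17 of the 20 targets, where 28.2% of all genes were lower in that sense, and no target lay above. The median log2 value of the targets was -1.29, and none passed the test with all 4 libraries. CDC20, an activator of the anaphase-promoting complex and the most abundant of them, had 137 FPKM ± 41.3 with empty vector and 40.4 ± 2.33 with MEOX2-OE (SD, n = 2 each; adjusted p = 0.175, edgeR). Without empty-vector library 1, 20 of 20 targets were called lower (median log2 -1.15), at a background of 24.2% of genes called lower.

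The other lists gave no call with all 4 U87 libraries. Without empty-vector library 1, where 23.3% of all genes were called higher and 24.2% lower, FOXO targets had 8 higher and 5 lower of 18. TXNIP, the most abundant of them with empty vector, had 52.8 FPKM ± 24.5 there and 162 ± 2.15 with MEOX2-OE. The PI3K and AKT list had 4 higher and 5 lower of 15, and the MuvB list had 1 lower of 6. In the same fit mural markers had 1 higher and 8 lower of 13, astroglial markers 1 higher and 4 lower of 7, endothelial markers 1 lower of 4, immune markers 1 lower of 1, neuronal markers 2 lower of 3 and epithelial markers 1 higher and 1 lower of 3.

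The control libraries of the lines differed in many forkhead genes. Of 29 members tested between control SNB19 and empty-vector U87 cells, 17 passed (edgeR), 11 higher and 6 lower in SNB19, against 41.4% of all 16158 genes tested, 21.4% higher and 20.0% lower. Without empty-vector library 1 the count was 25, 14 higher and 11 lower, at a background of 70.8%, with 36.3% of all genes higher and 34.5% lower. In this contrast the cell line cannot be told apart from the handling, since SNB19 controls were transfected with siRNA and U87 controls carried a lentivirus and were selected. Across all 4 U87 libraries 11 members had 0 reads, and across all SNB19 libraries 1 member, FOXE1, had 0 reads.

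Members found in U87 and nearly absent from SNB19 were FOXD1, FOXC2 and FOXP2. FOXD1, a factor of kidney stroma, had 1 read in the 3 control SNB19 libraries together and 960 and 1704 in the empty-vector libraries, a ratio of 5224 with a 95% counting interval of 937 to 206421, or 6144 (1101 to 242816) without library 1. FOXC2 had 3 reads against 216 and 448, a ratio of 434 (148 to 2110), or 538 (183 to 2621) without library 1. FOXP2, known for its part in speech, had 2 reads against 65 and 149, a ratio of 210 (57.4 to 1744), or 269 (73.1 to 2239) without library 1. The intervals are exact Clopper-Pearson intervals of the summed counts. FOXL1 was expressed in both lines and lower in SNB19 (log2 -3.97, SE 0.18, adjusted p = 3.81e-04, edgeR; -3.80 without library 1), as was FOXP1 (-1.17, SE 0.27; -0.71 without library 1). FOXC1 did not pass (log2 0.50, or 0.12 without library 1). Along chromosome 16 the neighbours FOXF1, FOXC2 and FOXL1 therefore had opposite patterns: FOXF1 was found in SNB19, with 326, 262 and 314 reads against 0 and 4, whereas FOXC2 and FOXL1 were higher in U87.

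Members found in SNB19 with 0 reads in both empty-vector libraries were FOXO6, FOXR2, FOXQ1, FOXA1, FOXF2 and FOXO1B. With U87 set at the floor of 3 reads per library, they were at least 85.7-fold, 15.5-fold, 9.53-fold, 5.03-fold, 3.74-fold and 2.11-fold higher in SNB19, respectively. Without library 1 these bounds lay between 2.31-fold for FOXO1B and 94.0-fold for FOXO6. FOXF1 (log2 6.78, SE 0.65), FOXO1 (3.23, SE 0.50), FOXO4 (1.59, SE 0.33), FOXN3 (1.50, SE 0.25) and FOXD2 (1.22, SE 0.32) were also higher in SNB19. These 5 kept their calls without library 1, at log2 values of 5.92, 2.63, 1.18, 1.22 and 0.84, so leaving out this library lowered the folds of FOXF1 and FOXO1 by over 1.5 times. Without any 1 of the 3 control SNB19 libraries FOXP1, FOXO4 and FOXD2 lost their calls, with log2 values of -1.19 to -1.12, 1.58 to 1.63 and 1.14 to 1.29. In the FOXO group 4 of 6 tested genes were higher in SNB19 and none was lower, beside 21.4% of all genes higher and 20.0% lower. FOXO3 (log2 0.49, or 0.06 without library 1) and FOXO3B (2.13, or 1.16 without library 1) did not pass with all libraries. FOXM1 did not pass with all libraries (log2 0.30), but was called lower in SNB19 without library 1 (-0.37, adjusted p = 1.03e-06, edgeR). 

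The list counts of this contrast depended on empty-vector library 1. With all libraries 21.4% of all genes were higher in SNB19 and 20.0% lower, and without library 1 the shares were 36.3% and 34.5%. Of the 20 FOXM1 target genes 7 were higher in SNB19 and 1, BIRC5, was lower, and without library 1 the counts were 12 and 3. FOXO targets gave 5 higher and 3 lower of 20, but 8 higher and 9 lower without library 1, and their median log2 value went from 0.25 to -0.15. The PI3K and AKT list gave 3 higher and 1 lower of 15, but 6 and 9 without library 1, with a median that went from 0.10 to -0.36. The MuvB list gave 1 higher of 6, and 1 higher and 3 lower without library 1. Markers that passed with all libraries were 5 higher and 7 lower of 15 mural, 4 and 1 of 8 astroglial, 2 and 0 of 4 endothelial, 2 and 0 of 3 immune, 0 and 2 of 4 neuronal and 3 and 1 of 5 epithelial genes. Without library 1 the mural and epithelial counts were the same, and the others were 5 and 1 of 8 astroglial, 2 and 2 of 5 endothelial, 1 and 0 of 3 immune and 1 and 3 of 4 neuronal genes.

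**Figure D4:**
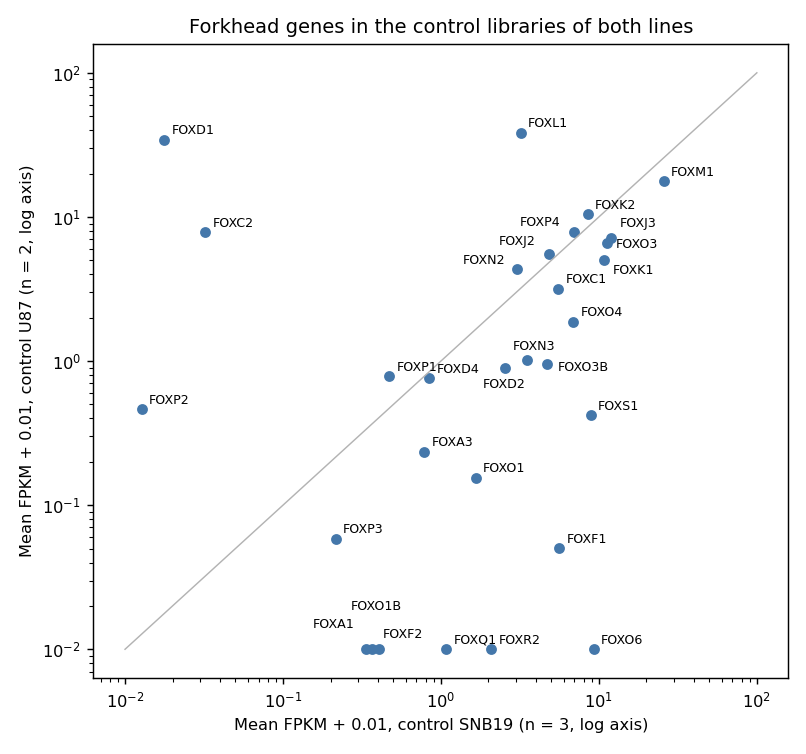
Mean FPKM + 0.01 of forkhead genes in control SNB19 (n = 3, horizontal log axis) and empty-vector U87 cells (n = 2, vertical log axis), with the line of equal levels in grey. FOXD1, FOXC2, FOXP2 and FOXL1 stand above the line, and FOXO6, FOXR2, FOXQ1, FOXF1 and FOXS1 below it.

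Whether the effect of more MEOX2 differed between the lines was tested in 1 model of all 10 libraries, as the MEOX2-OE minus empty-vector difference less the control minus siMEOX2 difference. Of 24 members tested, 4 had an adjusted p under 0.05 (edgeR), at a background of 24.4% of 17312 genes, with 10.2% in the higher and 14.2% in the lower direction. Of these, 3 are described. FOXJ3 (1.26, SE 0.33), FOXK1 (1.03, SE 0.32) and FOXO1 (1.57, SE 0.48) were higher in the U87 effect, with adjusted p of 0.023, 0.045 and 0.043 (edgeR). FOXO1 had few U87 reads, 5 and 21 with empty vector and 38 and 36 with MEOX2-OE. Since the 2 changes differ in line, in vector and in the amount of MEOX2, this test compares experiments as a whole. Leaving out any 1 SNB19 library left 1 or 2 calls, where 2799 to 3184 genes were called over all, against 4229 with all libraries. FOXK1 and FOXO1 lost theirs each time (adjusted p of 0.073 to 0.098, edgeR). Leaving out a U87 library leaves 1 library in its group, and the number of calls then went either way.

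Promoter windows of 300 bases (RefSeq, GRCh38.p14) were matched for 31 members by symbol. The homeodomain core TAATTA, read on both strands, occurred in 3 of them, those of FOXJ3, FOXN1 and FOXO4 (9.68%), beside 4.98% of all 27305 promoters. The forkhead motif GTAAACA occurred in that of FOXO4 alone (3.23%, beside 3.41%). These motifs do not overlap in sequence, and a match describes letters in a window.

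The table also held 19 genes whose names start with FOX outside the name rule, or FENDRR. After knockdown 4 of the 5 tested passed, beside 55.9% of all genes. These were FOXP4-AS1 and FOXD2-AS1, described above, and FOXRED1 (log2 0.23) and FOXRED2 (-0.72), which are oxidoreductases without a forkhead domain. None of 6 passed in the U87 comparison with all 4 libraries, where edgeR called no gene. Without empty-vector library 1 the log2 values there were -0.57 for FOXD2-AS1, 2.12 for FOXN3-AS1 and -0.47 for FOXRED1. Between the control groups with all libraries FOXD2-AS1 alone of 7 passed, beside 41.4% of all genes. It was lower in SNB19 (log2 -1.01, SE 0.29, adjusted p = 0.042, edgeR). Without library 1 it lay at -0.67, and FOXRED1 (0.74), FOXRED2 (0.37) and FOXN3-AS1 (1.41) were higher in SNB19. The library kit does not mark strand, so reads of FOXP4 and FOXP4-AS1 cannot be told apart where they overlap. Among others, the gene bodies of FOXA1, FOXC2, FOXK2, FOXM1, FOXN3, FOXO1, FOXO3, FOXO6, FOXP1 and FOXP2, introns included, overlap genes on the opposite strand. Whether their exons overlap was not tested.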

How the data were processed

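RNA libraries (NEBNext Ultra, poly-A, paired-end) were aligned by the authors with HISAT2 to GRCh38 and deposited as read counts per gene made with HTSeq 0.11.2. The strand setting and the annotation release are not given in the sources used here; the lengths behind the deposited FPKM values equal GENCODE 29 merged exon lengths for all 42 members. The deposited FPKM values divide each count by that length and by the library's gene counts. Counts were tested with edgeR 4.0.16 (R 4.3.3; TMM scaling, filterByExpr with a minimum count of 10, quasi-likelihood F-test, Benjamini-Hochberg adjustment over all genes tested, threshold 0.05), in 1 fit for each of the 3 comparisons and 1 fit of 4 groups for the difference of effects. CPM values use TMM factors of all 10 libraries. SE is the absolute log2 fold change divided by the root of F. DESeq2 1.42.0 was an alternative; scripts were tested on simulated data. The other alternatives were DESeq2 size factors, no filter, a replicate block, 1 fit over 10 libraries, the study's threshold and each library left out in turn.

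Depth was 12533775 to 16560324 counts per library, and 3 reads correspond to 0.18 to 0.24 CPM of library totals. Groups were taken from the sample titles. The members, gene lists, markers and tests were chosen with earlier results of these data known. Genes were named by a rule: FOXS1, every member that passed in a comparison (at most 14 in full), the 5 most abundant members of each control group, the 3 genes on each side of FOXS1, and at most 4 genes from each list. Some items that meet this rule are not reported here. Values of members that did not pass were added after they were seen. Replicate numbers come from the titles, which do not state that they mark shared cultures. Both MEOX2-OE titles end in OE-2 in brackets, so the numbers before the brackets were used. The correlations of same-numbered deviations were 0.003, -0.012 and 0.058 after knockdown, so the numbers were not treated as pairs.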

Additional observations from a re-analysis of the deposited data

Results flagged for a closer look

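The effect of more MEOX2 differed between U87 and SNB19 cells for the forkhead genes below in the fit of all 10 libraries (edgeR interaction, adjusted p under 0.05). FOXJ3 had a difference of 1.26, from -0.42 in SNB19 (control over siMEOX2, log2) and 0.84 in U87 (MEOX2-OE over empty vector), and 0.92 without empty-vector library 1. FOXK1 had a difference of 1.03, from -0.61 and 0.42, and 0.68 without that library. FOXO1 had a difference of 1.57, from -0.13 and 1.47, and 1.02 without that library. Its U87 value rests on few reads, 5 and 21 with empty vector and 38 and 36 with MEOX2-OE. The SNB19 change of FOXO1 did not pass by itself (adjusted p = 0.373, edgeR). Without empty-vector library 2 instead, the differences were 1.83 for FOXJ3, 1.62 for FOXK1 and 2.81 for FOXO1. Both kinds of fit leave 1 empty-vector library, so whether a call was kept there says little. With any 1 of the 8 SNB19 and MEOX2-OE libraries left out, FOXK1 and FOXO1 lost their calls each time, at adjusted p of 0.073 to 0.140 and 0.077 to 0.145 (edgeR), and FOXJ3 kept its call in 1 of 8 fits, at adjusted p of 0.034 to 0.091 (edgeR). The differences themselves kept their direction in these fits. The within-line changes in U87 did not pass by themselves.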

How the results depend on the processing

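After knockdown the count of 15 members was unchanged with DESeq2 size factors, no filter, the DESeq2 test and the replicate block, and ranged from 14 to 19 with 1 library left out. In those leave-out fits 7662 to 9102 genes were called over all, beside 8683 with all libraries. Under the study's threshold the count was 2, beside 10.8% of all genes. It was 8 in 1 fit over 10 libraries, in which all groups share 1 estimate of spread and 2725 of 17312 genes tested were called. FOXD2, FOXJ3, FOXK1, FOXK2, FOXM1, FOXO3 and FOXR2 lost their call in that joint fit with the direction kept. The FOXS1 knockdown value ranged from -3.97 to -3.69 with 1 library left out. In U87 cells the count of 0 became 6 in the joint fit, 2 under the study's threshold, and 0 to 18 with 1 library left out. The replicate block gave 0 members there and 15 against 17 between the control groups. Same-numbered U87 libraries deviated oppositely (correlation -0.24); a block with crossed numbers, chosen after seeing the data, called 1152 genes and 0 members, beside 468 genes with the numbers as given. In the control contrast FOXD2, FOXO4 and FOXP1 lost their call without any 1 SNB19 control library. In those fits 3244 to 3322 genes were called over all, against 6685 with all libraries. The difference of effects lost calls without any 1 SNB19 library, where 2799 to 3184 genes were called over all, against 4229 with all libraries. The FOXS1 bound in U87 ranged from -2.32 to -0.36 and was -1.29 with library totals as deposited, an alternative chosen after seeing the data; no bound was computed for it without a filter, with the DESeq2 test, a block or the joint fit. Its control contrast ranged from 3.27 to 5.16. The members that passed with all libraries kept their direction under the alternatives run, whereas 11 that did not pass turned in at least 1 comparison. With 1 library left out after knockdown FOXA1 (0.09) ranged from -0.17 to 0.27 and was -0.075 without siMEOX2 library 1. In U87 cells the lowest and highest values, with 1 or the other empty-vector library left out, were -0.95 and 1.01 for FOXM1, -0.44 and 0.45 for FOXD2, -0.012 and 0.29 for FOXL1, -0.51 and 0.49 for FOXO4, -0.28 and 0.50 for FOXP1, -0.21 and 0.11 for FOXP4 and -0.17 and 0.49 for FOXN3. FOXM1 (-0.29) was also 0.0050 there with the replicate block and 0.0045 with crossed numbers. Between the control groups the ranges were -0.37 to 1.61 for FOXM1, -0.58 to 0.21 for FOXD4, -0.84 to 0.025 for FOXJ2 and -1.30 to 0.063 for FOXN2, and FOXD4 (-0.25) was 0.0085 without SNB19 control library 3 and 0.036 with the replicate block. Of the values on the other side of 0, those of FOXM1 (without empty-vector library 2 in U87, without library 1 between the control groups) and FOXP1 (without library 2) passed the test. The cause of these changes was not tested.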
